A study of Mus musculus with 2 samples.

Results

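The guides described here were well represented in uninduced macrophages and nearly lost from the cells that survived induction of a gasdermin D pore. They were chosen by their reads in both libraries, as guides with at least 2000 and fewer than 3500 reads in the uninduced input and at most 20 reads in the induced survivors. Of the 8699 guides in that window of input reads, 66 met the rule, which is 0.759%, out of 79633 guides in the library. Because the rule used both counts, the loss itself is given as a description. This holds also where the members' number is set beside that expected from sampling, and their reads beside those of other guides. What the rule did not use, such as the sequence of the guides and the counts of related guides, is compared as well.

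Both populations were bone marrow derived macrophages from mice with Cas9 knocked in at R26, immortalised with the J2 retrovirus. Cells of both groups expressed the Tet3G transactivator, carried the caspase-cleavage fragment of GSDMD, inducible by doxycycline and fused to tagBFP, and had received the Brie lentiviral library with blasticidin resistance. The input cells got no doxycycline, and the survivors got 0.5 μg/ml for 16 h and were sorted for BFP and against propidium iodide, a dye that enters cells with broken membranes. Each group had 1 library, of 86266754 reads for the input and 16269091 for the survivors, so differences are described without p-values and without a check by replicates. The plasmid pool was not analysed here, the fragment was expressed from a transgene rather than released from the cell's own protein, and both files are called combined without the sources used here saying what was combined.

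In such a screen each cell carries a guide RNA that directs Cas9 to cut one place in the genome, and the guide's DNA, which stays in the cell, counts the cells that carry it. Gasdermin D is cut by inflammatory caspases, and its N-terminal fragment inserts into the plasma membrane as a pore that kills the cell by pyroptosis. A guide that is frequent in the input and rare in the survivors belongs to cells that were few in the sorted gate, which asked for both BFP and an intact membrane, or to cells that were not sampled. Guides are read here as sequences, and no gene was assigned to them in the comparisons.

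Of the 66 guides, 9 had no survivor reads at all. They are shown because no member had fewer survivor reads. The first base, to which the results return, is in capitals, and each guide is called by its first 6 bases.
ACTCAC guide: Actcacctcgacctaagtgc
CCTGCC guide: Cctgccctagcacaaatcaa
TCATTC guide: Tcattcctaggcgctcggga
GGAACA guide: Ggaacacaggaatgttctga
CTTTAA guide: Ctttaaagaggggccatatg
CTGGAG guide: Ctggaggcaatgtacaacca
AGATGC guide: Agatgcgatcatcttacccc
ACTCTT guide: Actcttcacacaccgctcag
GCAACG guide: Gcaacgaatgatgatccctg

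The ACTCAC guide had 2409 input reads and 0 survivor reads. At the median ratio of the window, 16.8 survivor reads per 100 input reads, 405 survivor reads would have gone with that input. Taking 3 reads as the most that a count of 0 allows, the guide was at least 135-fold lower than the median guide of the window. This floor is one-sided, and the two-sided 95% exact interval, used for the guides with reads, reaches a little higher, to 0.911% of the reads expected. The CCTGCC guide went from 2360 input reads to 0 survivor reads, at least 132-fold lower, and the TCATTC guide from 2284 to 0, at least 128-fold lower. Input reads were 2251 for the GGAACA guide, 2248 for CTTTAA, 2179 for CTGGAG, 2147 for AGATGC, 2088 for ACTCTT and 2082 for GCAACG. The GCAACG guide, with the fewest input reads of the 9, was still at least 117-fold lower. These limits cover counting error only, since the reads were PCR products with no molecular identifiers. All 9 lay below 2500 input reads. None of the 3543 window guides from 2500 input reads upward was listed at 0.

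The next 9 guides had 1 survivor read each. The 2 with the most input reads are shown because they combine deep input with a single read.
TCAATC guide: Tcaatcaggctaagtctgaa
GGCTCC guide: Ggctccatagtgaacgactg

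The TCAATC guide had 2946 input reads and 1 survivor read, where the window median gives 496. It was therefore at 0.202% of the reads expected (95% exact interval 0.00511 to 1.12%, counting error only). The GGCTCC guide had 2757 input reads and 1 survivor read, or 0.216% of the reads expected (0.00546 to 1.20%).

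The 2 members with the most input reads kept slightly more survivor reads, and are shown as the best represented.
GGTTGT guide: Ggttgtcttgtactccaagg
TAATGG guide: Taatggtgatgttgccacag

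The GGTTGT guide had 3483 input reads and 15 survivor reads, or 2.56% of the 586 reads expected (95% exact interval 1.43 to 4.23%). The TAATGG guide had 3031 input reads and 10 survivor reads, or 1.96% of the 510 reads expected (0.939 to 3.61%). These were the only members above 3000 input reads, among 1101 guides from 3000 to below 3500 input reads.

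Over all 66 guides, input reads ran from 2004 to 3483 with a median of 2291, where the median guide of the whole library had 939. Survivor reads ran from 0 to 20 with a median of 10. The other 8633 guides of the window had a median of 2393 input reads and 416 survivor reads, 41.6 times the members' median. Together the 66 guides held 154297 input reads, 0.179% of that library, and 623 survivor reads, 0.00383% of the survivors. On log2(RPM + 1), with RPM the reads scaled to a library total of 1000000 and the difference centred on the median guide from 30 input reads, the members lay between -4.63 and -3.04 with a median of -3.73. The lowest value belonged to the TCAATC guide, which had 1 survivor read and more input reads than any guide at 0. All 66 were at least 4-fold lower than the median guide, which their rule fixes. That fold was passed by 292 window guides, or 3.36%, and by 6272 guides from 30 input reads, or 8.17%. The same 6272 were 8.74% of the guides from 200 input reads. With the pseudocount, guides with the fewest input reads cannot fall that far, so the share depends on the input minimum.

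The boundary of the rule cut through a continuous range. The guides on either side are shown to make that visible.
CTTCAA guide, inside: Cttcaaccgaattcatcaga
AGTCCC guide, inside: Agtcccactgaaacgctctg
GCATGG guide, outside: Gcatgggcttggtgtcccga
GCAGCC guide, outside: Gcagccttccaacaagtgca

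Inside, the CTTCAA guide had 2230 input reads and 20 survivor reads, and the AGTCCC guide had 2176 and 20. Outside, the GCATGG guide had 2837 input reads and 21 survivor reads, and the GCAGCC guide had 2238 and 21. Relative to its input the GCATGG guide, at 4.40% of the reads expected, was lower than both guides inside, at 5.33% and 5.46%. A limit set on the share of expected reads rather than on reads, at most 5%, took 61 guides, of which 59 were members.

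Survivor reads within the members did not thin out evenly towards 0. There were 9 guides at 0 reads, 9 at 1 read, 1 at 2 reads, 2 at 3 reads, 14 at 4 to 10 reads and 31 at 11 to 20 reads. So 18 guides lay at 0 or 1 read and 48 were spread from 2 to 20 reads. From 11 to 20 reads there were between 1 and 6 guides at each read number, and just outside the rule, from 21 to 30 reads, 39 guides continued at a like rate. The same pile at the lowest counts was seen in the next band of input reads, outside the rule, where of 10063 guides from 1500 to below 2000 input reads 50 had 0 survivor reads, 17 had 1 read and 136 had 2 to 20 reads.

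The number of nearly lost guides was set against what sampling would leave. If survivor reads only followed input reads with the error of counting reads, the expected number of window guides at 20 reads or fewer was 3.64e-134, in effect none. A second expectation treats the survivors as a Poisson number of sampled units, such as cells or DNA copies, in proportion to input reads. Fitted to the absent guides of the whole library from 30 input reads, it gave 3.79 units per 1000 input reads. It left 1.43 window guides with no unit, against 9 at 0 reads. Guides with 1 or a few units can also fall to 20 reads or fewer. If each unit gives an exponentially distributed number of reads with a mean of 51.3, a form chosen after the data were seen, 9.44 guides were expected at 20 reads or fewer, and the 66 observed were 6.99 times that number. Both expectations use the same rate for every guide, fitted with the members included. Whether that rate fits the guides at 0 reads outside the window was not tested. The excess therefore describes how far the counts depart from this form and gives no probability.

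Another expectation lets survivor reads vary as much as they do over the window. A negative binomial with its mean in proportion to input reads and a dispersion of 0.445, taken from the variance of all 8699 window guides, gave 19.5 guides at 20 reads or fewer. The 66 observed were 3.38 times that number. The excess was uneven: 0.172 guides were expected at 0 or 1 read and 18 were observed, whereas 19.4 were expected at 2 to 20 reads and 48 were observed, 2.48 times as many. From 21 to 50 reads 105 were expected and 127 observed, a ratio of 1.21, and from 51 to 100 reads the observed 297 were below the expected 360. The negative binomial was fitted to the same guides, members included, and its lower tail is a property of its shape, so these ratios describe how far the counts depart from that shape and give no probability.

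A fixed limit of 20 survivor reads is a smaller part of the reads expected the more input reads a guide has, so the share under it has to fall as input rises, and the bands give its size. At most 20 survivor reads were left for 5.59% of guides from 1000 to below 1500 input reads (95% exact binomial interval over guides 5.26 to 5.95%) and for 2.02% from 1500 to below 2000 (1.75 to 2.31%). Within the window the share was 0.989% from 2000 to below 2500 reads (0.737 to 1.30%), 0.532% from 2500 to below 3000 (0.284 to 0.909%) and 0.182% from 3000 to below 3500 (0.0220 to 0.655%). Above the window 1 of 942 guides was left that low. For the same reason the members crowd the lower end of the window: 51 of 66 had fewer than 2500 input reads, or 77.3%, against 59.1% of the other window guides. With the negative binomial fitted within each band, the ratio of observed to expected was 1.64 in the band from 1000 reads, 2.01 from 1500, 2.74 from 2000 and 2.78 from 2500. A ratio of 5.21 in the band from 3000 reads rests on 2 guides. The count fell with input reads more slowly than the fitted distribution did.

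Guides that start with G made up more of the members than of the rest. Of 66 members 24 started with G, or 36.4% (95% exact binomial interval 24.9 to 49.1%), against 1860 of 8633 others, or 21.5% (20.7 to 22.4%). The base at the 5′ end lies farthest from the PAM, the short motif beside the target that Cas9 needs. A further 15 members started with A, 15 with T and 12 with C, which are 22.7%, 22.7% and 18.2%, against 24.4%, 26.7% and 27.3% of the others. The share of window guides lost was 1.27% for first base G (0.818 to 1.89%), 0.706% for A (0.396 to 1.16%), 0.647% for T (0.362 to 1.06%) and 0.506% for C (0.262 to 0.882%). The intervals of G and A and of G and T overlap, and those of G and C overlap too. Weighting the other guides to the members' input reads in bins of 250 left their share of G at 21.8%.

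This difference was not particular to the members. Across the window the share of guides starting with G was 33.9% at 21 to 50 survivor reads (25.7 to 42.8%), 29.6% at 51 to 100, 31.2% over 100 and up to 200, 26.5% up to 400, 18.1% up to 800 and 8.71% above 800 reads (7.22 to 10.4%). Window guides starting with G had a median of 311 survivor reads and 2369 input reads, and the others 444 and 2399. With separate means and dispersions for the 2 sets, the negative binomial expected 6.71 members starting with G and 10.2 others, which puts G at 39.7% of the expected members beside the 36.4% observed. Both sets exceeded their expectation by like factors, 3.58 for G and 4.13 for the others. The fits were made on the same guides, members included, so these numbers are a description and give no probability. The guides at the bottom of the range held G less often: 2 of the 9 at 0 reads started with G, and 5 of the 18 at 0 or 1 read, or 27.8% (9.69 to 53.5%), against 19 of 48 at 2 to 20 reads, or 39.6% (25.8 to 54.7%). These intervals overlap widely.

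Among members with fewer than 2500 input reads, 16 of 51 started with G, or 31.4%, against 22.0% of the other guides there. From 2500 reads upward the share was 8 of 15, or 53.3%, against 20.9%. No interval was computed for either share, and few guides decide the one from 2500 reads. The second base of the members starting with G was G in 9, C in 9, A in 4 and T in 2.

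The other positions were compared in the same way. All 4 bases were compared at all 20 positions, counted from 1 at the 5′ end, which makes 80 combinations. In 4 of them, or 5%, the share among the other guides lay outside the members' 95% interval. Exact intervals leave at most 5% outside where nothing differs, and the 4 bases of a position depend on one another. The number outside therefore does not decide whether any position differs. None of the 4, first base G included, is set apart by its interval alone. Besides G at position 1 these were T at position 4, with 31.8% of members against 20.5% of others, C at position 10, with 13.6% against 27.4%, and T at position 17, with 33.3% against 17.0%. Position 17 borders the place where Cas9 cuts. The difference of 16.3 percentage points there was larger than the 14.8 points of the first base, and this position was singled out after its values were seen.

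In median GC content no difference held under all the limits tried. The members' GC content ran from 35% to 70% with a median of 50% (95% interval of the median 50 to 55%), and that of the other guides from 20% to 85% with a median of 55%. GC content moves in steps of 5 points in 20 bases, so the medians are 1 step apart, and the members' interval includes the others' median. The difference was 0 when the survivor maximum was set at 10 or at 50 reads. At 65% GC or more were 5 members, or 7.58% (2.51 to 16.8%), against 16.7% of the others. At 35% or less were 3 members, or 4.55%, against 4.49%. These 2 shares were computed at the rule's own limits only.

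For runs, folding, CpG and the last bases, the share among the other guides lay within the members' interval. A run of 4 T, which ends transcription by RNA polymerase III, was in none of the 66 members and in 4 of the other guides. The exact interval of 0 in 66 reaches up to 5.44%. Any run of 4 or more of one base was in 8 members, or 12.1% (5.38 to 22.5%), against 10.7% of others, and a run of 4 G in 2 members. Folded alone as RNA with RNAfold, members had a median minimum free energy of -0.80 kcal/mol (95% interval of the median -1.20 to -0.20) and the others the same median of -0.80. A hairpin stem of 5 or more pairs was possible in 3 members, or 4.55% (0.947 to 12.7%), against 2.86%. At least 3 CpG dinucleotides were in 1 member, or 1.52% (0.0384 to 8.16%), against 7.23% of the others. The last 2 bases were GG in 9 members, or 13.6% (6.43 to 24.3%), against 12.2%, and TT in 1 member against 0.498% of the others.

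The members were not close relatives of one another. Among their 2145 pairs no pair overlapped, and the closest members still differed at 7 of 20 positions. A loss repeated by a second guide to the same place would have to show in guides that are not members, so overlapping and near-identical guides were sought in the whole library.

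Overlapping guides have ends that coincide over 14 or more bases, on either strand. That they target the same place was not checked against a genome. One member had such a partner, or 1.52% (0.0384 to 8.16%), against 95 of the 8633 other window guides, or 1.10%. The pair is shown with its 19 shared bases in capitals, and the partner runs on the opposite strand.
GCACTA guide, member: GCACTACCAGATGAGGTACg
GTACCT guide, partner: GTACCTCATCTGGTAGTGCa

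The GCACTA guide had 2577 input reads and 17 survivor reads. Its partner had 1307 input reads and 42 survivor reads, 19.1% of the reads expected at the window's ratio. The partner's log2 fold change was -1.75, short of the 4-fold limit, and 9.53% of the 8756 guides within 10% of its input reads were lower. Both guides were thus low, the partner less so. The other window guides had 97 overlapping partners with at least 200 input reads, of which 4, or 4.12%, were at least 4-fold lower, where 8.74% of all library guides from 200 input reads were.

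Near-identical guides differ at 3 or fewer positions in the same orientation, and can be directed to different members of a gene family or to repeated sequence. Of the members 6 had at least 1, or 9.09% (3.41 to 18.7%), against 345 of the others, or 4.0% (3.59 to 4.43%). The closest pairs, which differ by a single base, are shown with that base in capitals. Each member was chosen for its few survivor reads, so more reads in a relative follow largely from the rule. Whether the differing base matters was not tested.
AGTTAC guide, member: agttacaagAagtgaaatgc
its relative: agttacaagGagtgaaatgc
GAAGTG guide, member: gaagtGtctttaagtctggg
its relative: gaagtAtctttaagtctggg
CCTTCT guide, member: ccttctgCttagaatccagg
its first relative: ccttctgAttagaatccagg
CCTTCT guide again: ccttctgcttagaatcCagg
its second relative: ccttctgcttagaatcGagg

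The AGTTAC member had 2325 input reads and 13 survivor reads. Its relative, which differs by A10G, had 572 input reads and 185 survivor reads. With less input the relative had many times the survivor reads, and stood at 192% of the reads expected. Expected reads of relatives use the window's ratio, although the relatives had fewer input reads than the window. Each relative is therefore also ranked among guides of like input, within 10% of its input reads. This relative was higher than 81.5% of them. The GAAGTG member had 2004 input reads and 19 survivor reads, and its relative, with G6A, had 1059 and 73, or 41.0% of the reads expected. That relative was higher than 25.9% of guides of like input. The CCTTCT member had 2044 input reads and 16 survivor reads. Of its relatives the one with C8A had 1523 and 136, or 53.1% of expected, and the one with C17G had 1648 and 235, or 84.8%. They were higher than 28.2% and 46.0% of guides of like input.

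The member with the largest family had 2407 input reads and 1 survivor read. It is shown with its 3 relatives, each with the bases that differ from the member in capitals.
TATTGC guide, member: TATTGCAGAATGTCAGATGT
relative with 2 differences: tGttgcagaatgtcaCatgt
first relative with 3 differences: AattgcagaGtgtcaCatgt
second relative with 3 differences: tGttgcaAaatgtcaCatgt

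All 3 relatives share G16C relative to the member. The relative with 2 differences had 1137 input reads and 63 survivor reads, or 32.9% of the reads expected, higher than 19.4% of guides of like input. The first with 3 differences had 1400 and 588, or 250% of expected, higher than 93.1% of them. The second had 1126 and 723, or 382%, higher than 98.2% of guides within 10% of its input. Relatives of the same lost guide thus lay on both sides of the median.

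The last 2 members with relatives are shown with the bases that differ in capitals.
TCGTGT guide, member: tcGtgtcTcataaagtatgt
its relative: tcAtgtcCcataaagtatgt
TTCTCT guide, member: ttctcttacaggtcTTagCg
its relative: ttctcttacaggtcAGagTg

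The TCGTGT member had 2468 input reads and 11 survivor reads, while its relative, with G3A and T8C, had 1392 and 439, or 187% of the reads expected. The TTCTCT member had 2551 and 3, while its relative, with 3 differences, had 564 and 81, or 85.4%. These relatives were higher than 83.9% and 55.7% of guides of like input, in that order. The last was so although it fell short of the reads expected at the window's ratio. Over all 9 relatives the log2 fold change ran from -1.12 to 2.11 with a median of 0.084. None of the 9 was at least 4-fold lower, where 8.74% of library guides from 200 input reads were, and the exact interval of 0 in 9 reaches up to 33.6%. Among relatives of the other window guides 26 of 412, or 6.31%, were that low. Both shares can include guides with too few input reads to reach that fold. Members with a library guide that shares the last 12 bases, the stretch beside the PAM where mismatches are tolerated least, were the guides GAAGTG and CCTTCT and the guide TCGTGT, 4.55% against 1.80% of the other guides (0.947 to 12.7% for members). Their relatives with those shared bases kept 41.0%, 53.1% and 187% of the reads expected.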

How the data were processed

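Per the file headers, the values deposited are raw read counts of each guide's 20-base barcode, not normalized; barcodes were amplified by PCR from genomic DNA and sequenced, per the labels' protocols. For the counting tool and its mismatch setting, the sources used here give nothing. Groups follow the treatment label, with 1 library each. The members, features and limits were chosen with earlier results of these data known. Named guides were the 6 lowest per input read, the 2 highest members, the 2 just outside, and members with relatives; the other 3 at 0 reads, the 2 at 1 read and the 2 with most input reads were added after their values were seen.

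Reads were joined by barcode and scaled to RPM with a pseudocount of 1, and fold changes were centred on the median of guides from 30 input reads. Expected reads are input reads times the window's median ratio. Negative binomial and Poisson expectations were computed in closed form and their fits tested on simulated data. Shares carry exact Clopper-Pearson intervals at 95%, treating guides as independent draws; medians carry order-statistic intervals. Python 3.11.15, numpy 2.4.6, pandas 2.3.3, scipy 1.17.1, RNAfold 2.7.2 and R 4.3.3 were used. edgeR 4.0.16 and DESeq2 1.42.0 gave scaling factors only.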

Additional observations from a re-analysis of the deposited data

How the results depend on the processing

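No paired analysis was possible because there was 1 library per group, which also left no replicate to leave out. Of 34 alternatives, 20 moved the value by less than its 95% interval (counts: by less than 1.5 times), 14 moved it further and 0 reversed it; the limit of 5% of expected reads was added later. The 66 guides became 35 at a survivor maximum of 10 reads, 193 at 50, 9 at 0, and 15 in the window from 2500 to below 3500 input reads, as each limit sets. The excess of first base G, 14.8 percentage points, was 0.57 points for the 9 guides at 0 reads and 32.5 points for the 15 guides from 2500 input reads, where few guides decide it; under the other alternatives it lay between 9.35 and 14.6. The GC difference of -5 points was 0 at a survivor maximum of 10 or 50 reads. The 19.5 expected guides became 3.64e-134 under Poisson read sampling and 9.44 under Poisson units with exponential reads per unit, added after the data were seen; the planned fit of Poisson units to absent guides gives a number at 0 reads only and has no value here; maximum likelihood gave 22.5 and separate fits by first base 16.9. Members with an overlapping guide fell from 1 to 0 on the same strand, and members with a near-identical guide rose from 6 to 12 at 4 substitutions. The median log2 fold change of -3.73 was -4.81 with a pseudocount of 0.1, -2.27 with 5, -4.07 with TMM and -4.05 with DESeq2 factors, which put the median guide at -0.23 and -0.18. All 66 stayed at least 4-fold lower except with a pseudocount of 5, which left 61. Below 3 survivor reads the depth does not order the guides.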

Other observations

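One member was placed without a genome. Its 20 bases followed by NGG were found in 1 of the 32851 RefSeq promoter windows (250 bases before to 50 after a gene's start, build GRCm38.p6), that of Vmac, 168 to 187 bases before the start. The match is chr17:56717867-56717886 on the plus strand. By RefSeq this position lies within the span of Ndufa11 (chr17:56717762-56724248), a protein-coding gene for a subunit of respiratory complex I; whether it is exonic was not analysed here.
TCTTAC guide: Tcttaccatgaggtccccga

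The guide had 2009 input reads and 6 survivor reads, or 1.78% of the 338 reads expected. It was singled out after its values were seen, because 75 of the 8699 window guides, and this 1 member, matched such a window. Other copies of the sequence were not sought, and no other guide was assigned to the gene.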
